A study of Mus musculus with 12 samples.

Results

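The carbonic anhydrase genes described here are Car1, Car2, Car3, Car4, Car5b, Car8, Car9, Car12, Car13 and Car14, which were chosen by name: 10 of the 22206 transcript clusters measured on the array. Each had 1 cluster, and the other 8 genes of the family are summarised after them. RNA came from the nucleus pulposus (NP), the gelatinous core of the intervertebral disc, and from the annulus fibrosus (AF), the fibrous ring around it. The 4 groups, with 3 samples in each, were NP of TonEBP +/- mice, NP of WT mice, AF of TonEBP +/- mice and AF of WT mice, all C57BL/6 and 12 months old. TonEBP, the product of Nfat5, switches on genes that protect cells in salty, water-drawing surroundings such as the NP. TonEBP +/- mice are haploinsufficient for it, and the labels name no driver that would limit the loss to the disc. A sample pooled lumbar disc tissue of 1 animal, so replicates were separate mice, and neither sex nor the deleted part of the gene was given in the labels. Signals are log2 values, in which a difference of 1 is a doubling, and they were not compared between genes, because probes differ in brightness.

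Carbonic anhydrases are zinc enzymes that interconvert carbon dioxide and bicarbonate, and so set how fast cells buffer and move acid. The disc core has no blood vessels, its cells live on glycolysis, and the lactate and protons they make have to be buffered and exported. The isozymes differ in where they work: Car1, Car2, Car3 and Car13 are cytosolic, Car5b is mitochondrial, Car4 is anchored to the outer face of the membrane, and Car9, Car12 and Car14 span the membrane with the catalytic domain outside. Car8 is a related protein that lacks catalytic activity and binds an inositol trisphosphate receptor. CAR3 has been described as a marker of NP cells, and CA9 and CA12 as targets of the hypoxia-inducible factor HIF-1.

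The promoters of Car9, Car4 and Car12 are shown because HIF-1 and TonEBP bind short known motifs. Car9 and Car12, both known as HIF-1 targets, also differed in detection. Car9 was above the background level described below on 12 of 12 arrays and Car12 on 0, which gives no contrast of their levels. RefSeq promoter windows of GRCm38.p6 were found for 5 of the 10 genes, Car4, Car5b, Car9, Car12 and Car14, and each runs from 250 bases before to 50 bases after the annotated start. Both strands were searched for ACGTG, a form of the hypoxia response element core, and for TGGAAA, the tonicity element core bound by TonEBP. The other form of the hypoxia core, GCGTG, was not searched. These spellings can share the letters TG, which no match here did. Capitals mark the matches, which lay on the reverse strand and therefore read as CACGT and TTTCCA.
Car9: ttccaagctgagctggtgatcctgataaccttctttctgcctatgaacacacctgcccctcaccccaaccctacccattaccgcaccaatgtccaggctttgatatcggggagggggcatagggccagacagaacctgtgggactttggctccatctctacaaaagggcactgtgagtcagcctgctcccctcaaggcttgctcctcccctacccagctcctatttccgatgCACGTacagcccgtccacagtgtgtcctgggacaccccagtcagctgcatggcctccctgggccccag
Car4: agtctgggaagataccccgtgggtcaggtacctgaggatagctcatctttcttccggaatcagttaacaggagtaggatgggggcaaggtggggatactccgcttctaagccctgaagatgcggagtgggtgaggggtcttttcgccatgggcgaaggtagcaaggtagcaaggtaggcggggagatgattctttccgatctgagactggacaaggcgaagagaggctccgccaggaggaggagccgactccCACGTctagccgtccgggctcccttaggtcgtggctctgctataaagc
Car12: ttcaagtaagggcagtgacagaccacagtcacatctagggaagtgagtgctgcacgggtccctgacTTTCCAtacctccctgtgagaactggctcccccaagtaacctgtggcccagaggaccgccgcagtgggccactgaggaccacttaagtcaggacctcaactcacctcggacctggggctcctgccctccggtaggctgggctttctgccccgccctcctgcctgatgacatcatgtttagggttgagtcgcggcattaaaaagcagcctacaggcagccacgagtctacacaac
The Car9 window is chr4:43506776-43507075 on the plus strand, and its single ACGTG match began at position -18 from the start site. In the Car4 window, chr11:84957504-84957803 on the plus strand, the match began at position 3. Car12, chr9:66713436-66713735 on the plus strand, held no ACGTG but was the only one of the 5 windows with TGGAAA, at position -184. Car14 held ACGTG at position -7, and the Car5b window held neither of the spellings searched. Of all 32851 windows, 19.6% held ACGTG and 21.4% held TGGAAA, so such matches are common by sequence alone. In RefSeq's gene order, Car13, Car1, Car3 and Car2 stand next to each other on chromosome 3, with no other protein-coding gene between them.

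Array medians were 6.82 to 6.87 log2 in NP and 7.43 to 7.64 log2 in AF, so tissue differences are given after subtracting each array's median. The background level of an array was the 95th percentile of its 23 background probe sets, 7.11 to 7.33 log2 in NP and 7.73 to 7.98 log2 in AF, and it was exceeded by 44.0% to 46.8% of clusters in NP and by 41.0% to 47.1% in AF. With 3 arrays in a group, precision is limited by their number. Nfat5 ran from 9.06 to 9.62 in NP of TonEBP +/- mice, against 8.34 to 9.12 in NP of WT mice. In AF it ran from 8.74 to 8.94 in TonEBP +/- mice, against 7.70 to 9.93 in WT mice. Neither difference passed (limma adjusted p = 0.911 in NP and 0.944 in AF), and whether its probes lie in the deleted part is not known here, so this may check nothing about the labels. The NP keratin Krt19 was 17.2 to 17.7 in NP. Of 11 NP markers measured, Foxa1, Foxa2, Foxf1 and Basp1 were above background on no NP array, and of 8 annulus and tendon markers, Scx, Mkx, Tnmd and Kera were above background on no AF array.

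**Figure D1:**
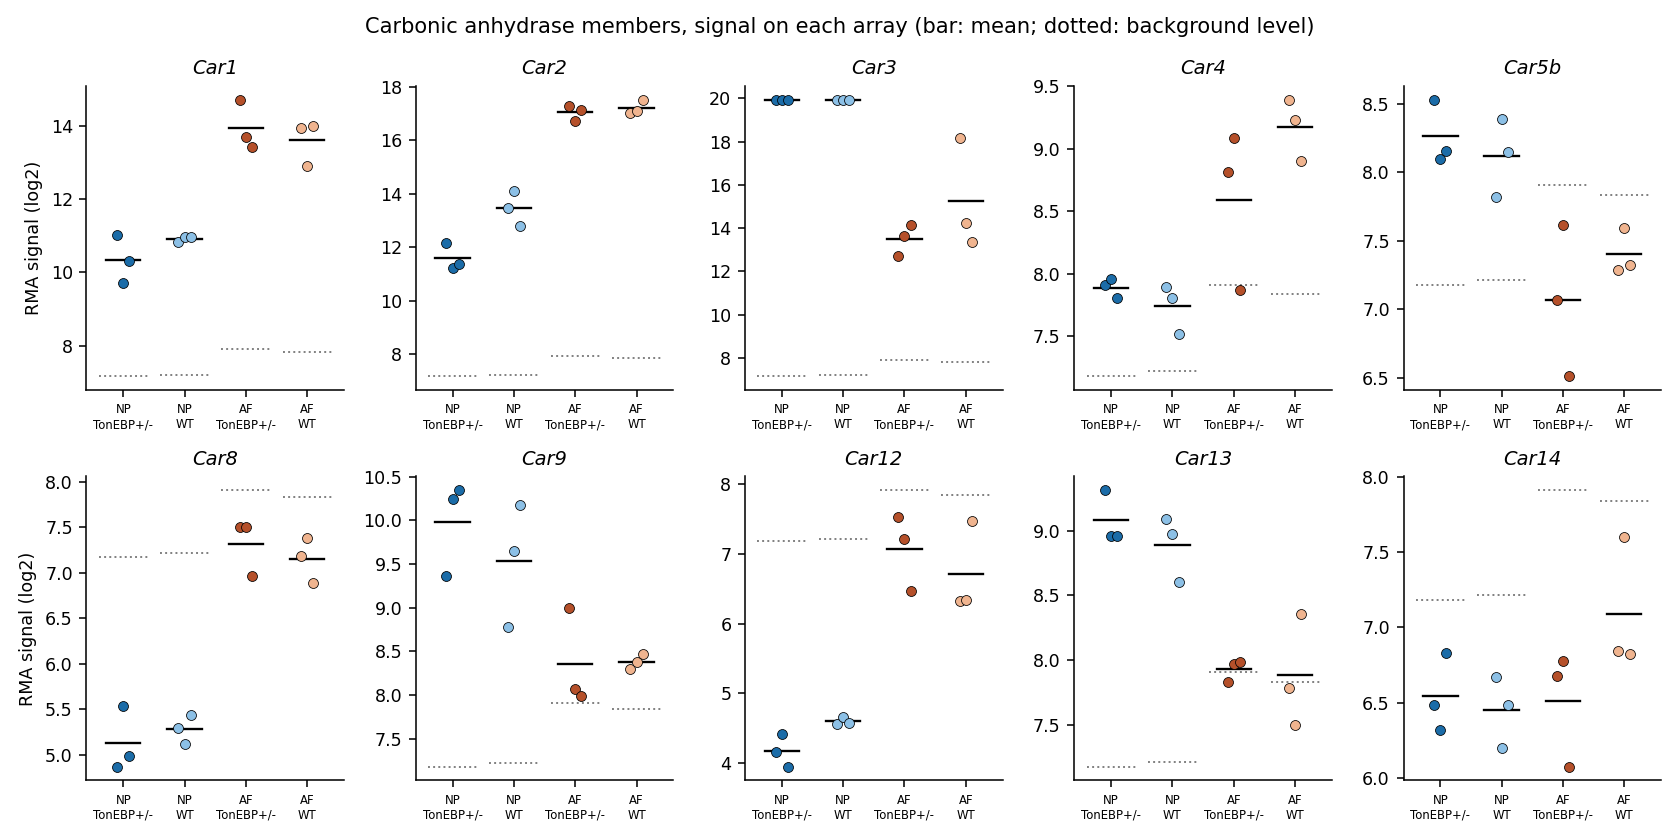
Log2 signal of the 10 carbonic anhydrase genes on each array, with 3 arrays per group. Points are arrays, bars are group means and dotted lines are the mean background level of the group; axes differ between genes. Car1 and Car2 sit lower and Car3, Car5b, Car9 and Car13 higher in NP than in AF, and only Car2 separates the genotypes within NP among the genes above background whose signal is not at its maximum.

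The carbonic anhydrase signals of NP and AF differed in both genotypes. Car3, Car9, Car13 and Car5b were higher in NP, Car1 and Car2 were lower in NP, and Car8, Car12 and Car14 were above background on no array of either tissue. By limma, 9 of the 10 genes passed in TonEBP +/- mice (5 higher and 4 lower in NP) and 9 of 10 in WT mice (4 higher and 5 lower). These counts include genes below background: Car8 and Car12, lower in both genotypes, and Car14, among the 5 higher in TonEBP +/- mice. Most clusters differed between the tissues: 56.1% of all passed in TonEBP +/- mice, 30.9% higher and 25.2% lower, and 64.7% passed in WT mice, 33.6% higher and 31.1% lower. The counts of 9 of 10 stand against a background in which most clusters passed. The median difference over the 10 genes was 0.36 log2 in TonEBP +/- mice and -0.30 log2 in WT mice, against -0.06 and -0.10 log2 over all clusters. The subtraction sets the size of every tissue difference: with the values as deposited each would be lower by 0.69 log2 (1.61-fold) in TonEBP +/- mice and by 0.74 log2 (1.67-fold) in WT mice, so that folds higher in NP shrink and folds lower in NP grow. The fold with the values as deposited is therefore given beside the folds of the detected genes. In bulk tissue, fewer cells of a type and less RNA per cell cannot be told apart.

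Car3, a cytosolic isozyme of low hydration activity that is abundant in muscle and fat, had signals of 19.93, 19.92 and 19.93 log2 in NP of TonEBP +/- mice, against 12.70, 13.65 and 14.14 in AF of TonEBP +/- mice. In WT mice it had 19.93 on all 3 NP arrays, against 18.17, 14.26 and 13.37 in AF. Every NP array lay above every AF array, and 2 of 3 NP arrays of TonEBP +/- mice and 3 of 3 of WT mice stood at 19.93 log2, the highest value in the deposited table. Relative to the array median, the capped values differed 139-fold in TonEBP +/- mice (log2 7.12, SE 0.70, limma adjusted p = 2.44e-07) and 42.5-fold in WT mice (log2 5.41, SE 0.70, adjusted p = 6.24e-06). With the values as deposited, the folds were 86.2 in TonEBP +/- mice and 25.4 in WT mice. Because the maximum hides higher signal in NP, all these folds are lower bounds. It also hides spread: in WT mice the SD was 0 in NP, against 2.55 log2 in AF. The SE and p-values therefore belong to the capped values only. The size of the WT difference also rested on the AF array at 18.17, without which it was 6.86 log2; without AF WT replicate 3 it was 4.47 log2. Of 13 skeletal muscle markers, 12 were above background on no NP array of TonEBP +/- mice and 10 on none of WT mice, and the same held for 8 of 9 adipocyte markers in each genotype.

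The HIF-1 target Car9 had signals of 9.36, 10.24 and 10.35 in NP of TonEBP +/- mice, against 9.00, 8.06 and 7.98 in AF. In WT mice the NP arrays had 8.78, 9.65 and 10.18, against 8.30, 8.37 and 8.47 in AF. NP arrays were above AF arrays in both genotypes, with a wider spread among NP arrays than among AF arrays of WT mice. Relative to the array median, Car9 was 5.00-fold higher in NP of TonEBP +/- mice (log2 2.32, SE 0.39, limma adjusted p = 7.89e-05) and 3.72-fold higher in NP of WT mice (log2 1.89, SE 0.39, adjusted p = 0.000482). Car9 as deposited was 3.10-fold higher in TonEBP +/- mice and 2.23-fold higher in WT mice (adjusted p = 0.0125).

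Car13, another cytosolic isozyme, had 9.31, 8.96 and 8.96 in NP of TonEBP +/- mice, against 7.83, 7.97 and 7.99 in AF. Its WT signals were 9.09, 8.97 and 8.60 in NP, against 7.78, 7.50 and 8.36 in AF. The groups did not overlap, and 1 AF array of each genotype was below background. The fold differences were 3.58 in TonEBP +/- mice (log2 1.84, SE 0.25, limma adjusted p = 1.17e-05) and 3.35 in WT mice (log2 1.74, SE 0.25, adjusted p = 2.15e-05), or 2.22 and 2.01 with the values as deposited. Mitochondrial Car5b had 8.53, 8.10 and 8.16 in NP of TonEBP +/- mice, against 7.07, 7.61 and 6.51 in AF. In WT mice it had 7.82, 8.39 and 8.15 in NP, against 7.29, 7.60 and 7.32 in AF. Car5b was above background on every NP array and on no AF array, so only a bound can be given, and that bound depends on the scale. Relative to the array median the bound was 2.06-fold in TonEBP +/- mice and 2.03-fold in WT mice. The limma p-values belong to the fitted differences without a bound. These were 1.89 log2 in TonEBP +/- mice (adjusted p = 1.14e-05) and 1.46 log2 in WT mice (adjusted p = 0.000152). With the values as deposited, Car5b was at least 1.28-fold higher in NP of TonEBP +/- mice and at least 1.22-fold higher in NP of WT mice. The limma adjusted p of the fitted WT difference was then 0.0242.

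Car2, the fast cytosolic isozyme of red cells and osteoclasts, showed the widest tissue difference among the genes lower in NP. Its signals were 12.16, 11.23 and 11.37 in NP of TonEBP +/- mice, against 17.27, 16.70 and 17.14 in AF. In WT mice they were 13.46, 14.10 and 12.80 in NP, against 17.02, 17.09 and 17.51 in AF. NP was lower 27.1-fold in TonEBP +/- mice (log2 -4.76, SE 0.36, limma adjusted p = 1.25e-08) and 8.07-fold in WT mice (log2 -3.01, SE 0.36, adjusted p = 2.75e-06). As deposited, the values were lower 43.8-fold in TonEBP +/- mice and 13.5-fold in WT mice. All 9 erythroid markers measured were lower in NP too, by a median of -3.79 log2 in TonEBP +/- mice and -2.51 log2 in WT mice. Of the osteoclast markers, 8 of 10 were lower in TonEBP +/- mice and 7 of 10 in WT mice. The fall was not limited to these lists. All 10 neutrophil and myeloid precursor markers were lower, by a median of -6.22 log2 in TonEBP +/- mice and -3.07 log2 in WT mice. All 9 endothelial markers were lower too, by a median of -1.97 and -1.47 log2. Of 11 NP markers, 8 passed as higher in each genotype. Of all clusters, 25.2% passed as lower in NP of TonEBP +/- mice and 31.1% in NP of WT mice. The part of red cell or osteoclast RNA in this Car2 difference was not tested.

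Car1, the other red cell isozyme, had 11.02, 9.72 and 10.30 in NP of TonEBP +/- mice, against 14.71, 13.69 and 13.41 in AF. In WT mice it had 10.83, 10.97 and 10.97 in NP, against 13.93, 12.90 and 14.00 in AF. It was lower in NP 7.45-fold in TonEBP +/- mice (log2 -2.90, SE 0.38, limma adjusted p = 5.90e-06) and 3.86-fold in WT mice (log2 -1.95, SE 0.38, adjusted p = 0.000310). With the values as deposited these folds were 12.0 and 6.44, and after quantile normalization over the 12 arrays 16.7 and 10.6. The membrane-anchored Car4, known from capillary endothelium, gave no clear tissue difference. Its signals were 7.91, 7.96 and 7.80 in NP of TonEBP +/- mice, against 8.81, 9.09 and 7.87 in AF, and 7.89, 7.81 and 7.52 in NP of WT mice, against 9.39, 9.23 and 8.90 in AF. Relative to the array median the difference was -0.01 log2 in TonEBP +/- mice (95% CI -0.57 to 0.55, limma adjusted p = 0.972), where the groups overlapped. In WT mice it was -0.70 log2 (SE 0.26, adjusted p = 0.0252), which did not pass without AF WT replicate 1 (adjusted p = 0.110), AF WT replicate 2 (0.0729) or NP WT replicate 3 (0.0791). Without subtracting the medians Car4 passed as lower in NP in TonEBP +/- mice too (log2 -0.70, adjusted p = 0.0266).

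Car12, Car14 and Car8 were above background on 0 of 12 arrays, so no fold is given for them and their fitted differences describe dim probes. Car12 ran from 3.95 to 4.42 in NP of TonEBP +/- mice, against 6.47 to 7.52 in AF, and from 4.56 to 4.66 in NP of WT mice, against 6.32 to 7.47 in AF. Car8 ran from 4.87 to 5.54 in NP of TonEBP +/- mice, against 6.96 to 7.51 in AF, and from 5.11 to 5.44 in NP of WT mice, against 6.89 to 7.38 in AF. Both passed as lower in NP in each genotype, in a range where AF arrays also had the higher background. Car14 ran from 6.32 to 6.83 in NP of TonEBP +/- mice, against 6.08 to 6.77 in AF, and passed there (log2 0.73, limma adjusted p = 0.0264), though not without AF TonEBP +/- replicate 3 (adjusted p = 0.0966) or NP TonEBP +/- replicate 3 (0.0916). In WT mice it ran from 6.20 to 6.67 in NP, against 6.83 to 7.60 in AF, and did not pass (log2 0.10, adjusted p = 0.740). Its difference depended on the scale: with the values as deposited it was 0.04 in TonEBP +/- mice (adjusted p = 0.908) and -0.64 in WT mice (adjusted p = 0.0407). The level used for background is strict. At the median of the background probe sets instead of their 95th percentile, Car14 was above it on 9, Car8 on 6 and Car12 on 3 of 12 arrays.

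**Figure D2:**
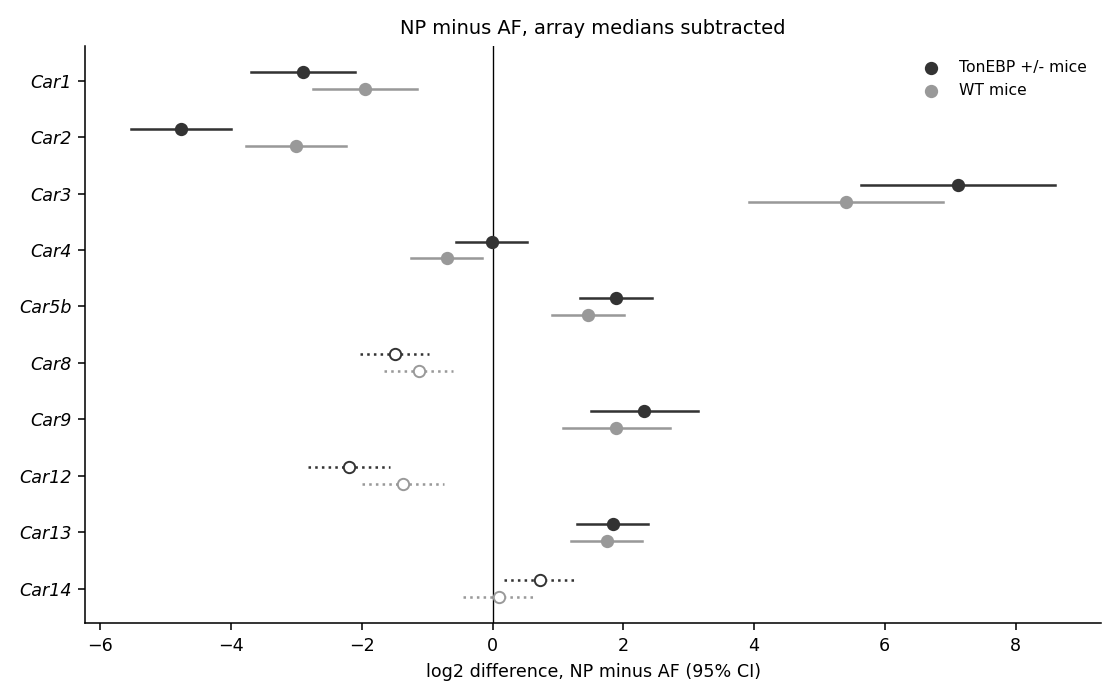
Difference between NP and AF (log2, NP minus AF, array medians subtracted) for each of the 10 genes, in TonEBP +/- mice (dark) and WT mice (grey). Points are limma estimates and lines 95% confidence intervals; open points with dotted lines are genes above background on no array of either tissue. Car3, at its signal maximum in NP, lies farthest to the right at 7.12 and 5.41, and Car2 farthest to the left at -4.76 and -3.01.

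Ordered by level after median subtraction, the 4 groups of Car1, Car2, Car3, Car5b, Car8, Car9, Car12 and Car13 split by tissue. Both groups of a tissue came before both of the other, with a gap between the tissues that no array crossed. Such separation was common: NP and AF arrays did not overlap for 60.4% of all clusters in TonEBP +/- mice and 71.6% in WT mice. Within a tissue, neighbouring genotypes overlapped for most of the genes named. The exceptions were Car2 in NP, Car12 in NP, where both groups were below background, and Car3 in NP, where 0.04 log2 at the signal maximum is the subtracted medians' own difference. For Car4 all neighbouring groups overlapped, and for Car14 only AF of WT and AF of TonEBP +/- mice stood apart, below background.

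The 8 remaining genes of the family were mostly not detected. Car5a, Car6, Car7 and Car15 were above background on no array. Car11, a related protein without catalytic activity, had signals of 9.91, 9.60 and 9.78 in NP of TonEBP +/- mice, against 6.22, 7.48 and 6.51 in AF. In WT mice it had 8.93, 8.86 and 9.85 in NP, against 6.59, 7.58 and 7.09 in AF. All AF arrays were below background. Relative to the array median the bound was 5.85-fold in TonEBP +/- mice and 4.35-fold in WT mice. The fitted differences were 3.72 log2 (limma adjusted p = 9.17e-08) and 2.87 log2 (adjusted p = 2.09e-06). With the values as deposited Car11 was at least 3.62-fold and at least 2.60-fold higher in NP. Ptprg and Ptprz1, receptor phosphatases with a carbonic anhydrase-like domain, passed as lower in NP in both genotypes but were above background on at most 1 of 3 arrays of any group, and Car10 did not pass. By limma, 0 of the 8 passed between genotypes in NP, with 0 at an unadjusted p under 0.05, and 0 passed in AF, with 1 at that level, Ptprz1.

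Genes that move acid and bicarbonate were set beside the isozymes. In the hypoxia response list, 11 of 12 genes were higher in NP in each genotype, although Ero1a in TonEBP +/- mice passed in 7 of 19 alternative settings only and turned lower after quantile normalization (log2 -0.33), where it did not pass in WT mice either. Of all clusters, 30.9% passed as higher in NP of TonEBP +/- mice and 33.6% in NP of WT mice. The median of the hypoxia list was 4.60 log2 in TonEBP +/- mice and 3.93 log2 in WT mice. Egln3, the HIF prolyl hydroxylase, was 127-fold higher in NP of TonEBP +/- mice and 125-fold higher in NP of WT mice. Slc2a1, the glucose transporter GLUT1, was higher 237-fold in TonEBP +/- mice and 150-fold in WT mice (limma adjusted p at most 1.12e-08 for both genes); with the values as deposited the folds were 79.0 and 75.1 for Egln3, and 147 and 90.1 for Slc2a1. Leaving out 1 AF array moved the Slc2a1 difference from 7.89 to 7.23 log2 in TonEBP +/- mice (replicate 2) and from 7.23 to 8.04 log2 in WT mice (replicate 1). Among 14 proton and lactate exporters, 4 were higher and 6 lower in NP of TonEBP +/- mice, and 3 were higher and 5 lower in NP of WT mice. The share that passed was 71.4% in TonEBP +/- mice and 57.1% in WT mice, near the 56.1% and 64.7% of all clusters. Slc16a3, the lactate exporter MCT4, had 12.83, 12.78 and 12.97 in NP of TonEBP +/- mice, against 11.63, 10.34 and 11.12 in AF, and 13.00, 12.79 and 12.53 in NP of WT mice, against 11.19, 10.35 and 9.92 in AF. It was higher in NP 5.73-fold in TonEBP +/- mice and 8.15-fold in WT mice. Its chaperone Bsg was higher 9.83-fold in TonEBP +/- mice and 8.99-fold in WT mice, and for the sodium-proton exchanger Slc9a7, below background in AF, the bound was 3.09-fold in TonEBP +/- mice and 4.20-fold in WT mice. With the values as deposited these folds were 3.55 and 4.88 for Slc16a3 (2.38 and 3.00 after quantile normalization) and 6.09 and 5.39 for Bsg, and Slc9a7 was at least 1.91-fold and at least 2.52-fold higher. The limma adjusted p-values of the fitted differences of these 3 genes ran from 5.43e-09 (Bsg) to 2.04e-05 (Slc9a7). Slc9a8, another sodium-proton exchanger, passed as higher in NP of TonEBP +/- mice (2.28-fold) but not with the values as deposited (log2 0.50, adjusted p = 0.150) or after quantile normalization (log2 0.15, adjusted p = 0.735). The lactate transporter Slc16a1 passed as lower there (1.75-fold), though not without AF TonEBP +/- replicate 1 (adjusted p = 0.0799) or NP TonEBP +/- replicate 3 (0.0521). The remaining genes lower in NP were dim there: Slc9a2, Slc9a9, Slc16a7 and Hvcn1 in both genotypes and Atp12a in TonEBP +/- mice were above background on no NP array, and Slc9a3, lower in WT mice, on 1.

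Of 14 bicarbonate and anion transporters, 1 was higher and 7 lower in NP of TonEBP +/- mice, and 2 were higher and 10 lower in NP of WT mice. The share that passed was 57.1% in TonEBP +/- mice and 85.7% in WT mice, against 56.1% and 64.7% of all clusters. All but Slc4a1 were above background on no NP array, 13 of 14 in each genotype. The anion exchanger Slc4a1, band 3 of red cells, was lower in NP 68.6-fold in TonEBP +/- mice (log2 -6.10, SE 0.46, limma adjusted p = 1.28e-08) and 8.98-fold in WT mice (log2 -3.17, SE 0.46, adjusted p = 2.24e-05). As deposited the differences were -6.79 and -3.91 log2, and without NP WT replicate 2 the WT difference was -3.77 log2. Those higher in NP, Slc4a3 in both genotypes and Slc4a2 in WT mice, were below background on every array of the groups compared, and Slc4a2 turned lower with the values as deposited.

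Between genotypes in NP, Car2 was the 1 gene of the 10 that passed. Across all clusters 0.365% passed, 0.00901% higher and 0.356% lower in TonEBP +/- mice. Car2, with the NP values given above, fell in TonEBP +/- mice 3.65-fold (log2 -1.87, SE 0.30, 95% CI -2.50 to -1.24, limma adjusted p = 0.0113). All 3 TonEBP +/- arrays, 11.23 to 12.16, lay below all 3 WT arrays, 12.80 to 14.10, a separation that 11.3% of all clusters showed in one direction or the other. The call was lost without NP WT replicate 1 (adjusted p = 0.0519), NP WT replicate 2 (log2 -1.54, adjusted p = 0.0783) or NP TonEBP +/- replicate 2 (log2 -1.69, adjusted p = 0.0890), and when NP arrays were fitted alone (adjusted p = 0.218). It passed in the other 15 of 19 alternative settings.

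**Figure D3:**
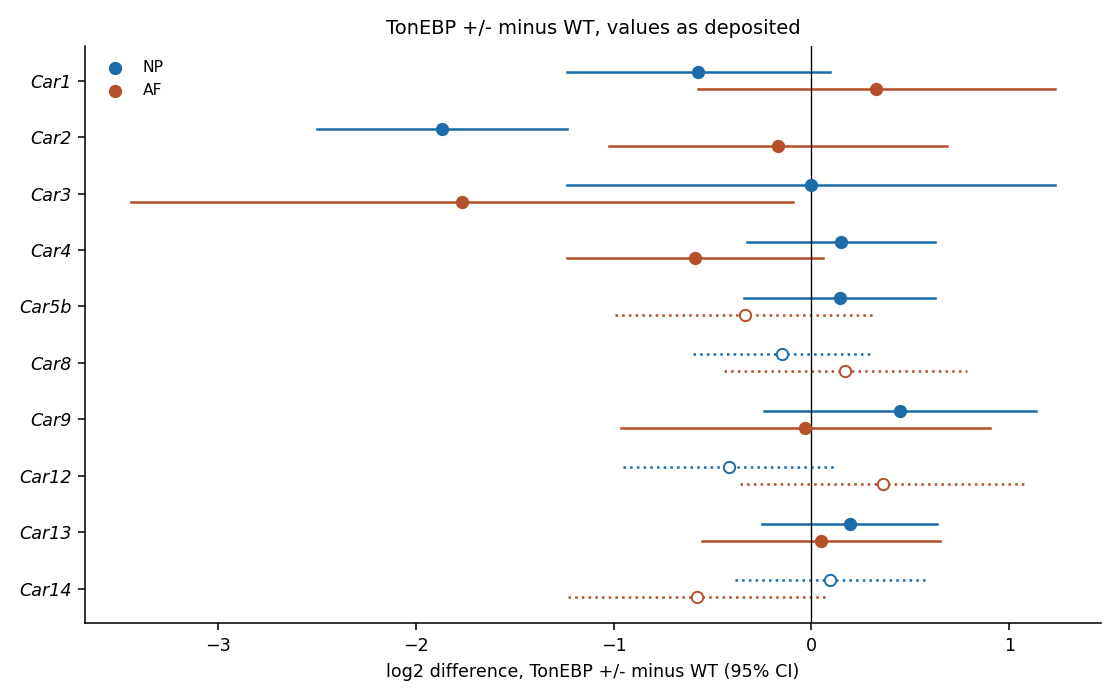
Difference between TonEBP +/- and WT mice (log2, TonEBP +/- minus WT, values as deposited) for each of the 10 genes in NP (blue) and AF (red). Points are limma estimates and lines 95% confidence intervals; open points with dotted lines are genes above background on no array of that tissue. Car2 in NP, at -1.87 with an interval from -2.50 to -1.24, is the one difference that passed after adjustment, and the interval of Car3 in AF runs from -3.44 to -0.09.

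The other 9 genes did not pass in NP. Car1 differed by -0.57 log2 (95% CI -1.24 to 0.09, limma adjusted p = 0.859), with NP WT arrays within 10.83 to 10.97 and the 3 TonEBP +/- arrays at 9.72 to 11.02, so that the groups overlapped. Car9 differed by 0.45 log2 (95% CI -0.24 to 1.13, adjusted p = 0.939). Car13, Car5b and Car4 differed by 0.19, 0.14 and 0.15 log2, with 95% intervals within -0.34 to 0.63. Car12 was lower on every TonEBP +/- array (log2 -0.42, adjusted p = 0.888) but below background throughout. Car8 and Car14, also below background throughout, differed by -0.15 and 0.09 log2. Car3 at its signal maximum gives no measure of a difference between genotypes in NP, since a change above that level cannot be seen. Over the 10 genes the median difference was 0.05 log2, against 0.01 log2 over all clusters.

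Markers of blood cells moved with Car2 in NP. The mean of 9 erythroid markers was 6.40 to 6.51 log2 in NP of TonEBP +/- mice, against 7.17 to 8.24 in WT mice. In TonEBP +/- mice 7 of the 9 were above background on no NP array, against 2 in WT mice. The lower mean is thus mostly of dim probes. The marker lists were chosen with earlier results of these data known, so their counts are a description and no test of the lists. By limma, 4 of the 9 fell while 0 rose, where 0.356% of all clusters passed as lower. These were Alas2, the first enzyme of haem synthesis in red cells (log2 -2.06, SE 0.41, limma adjusted p = 0.0385), Epb42, a red cell membrane protein (log2 -1.35, SE 0.25, adjusted p = 0.0281), Rhag, which carries ammonia and carbon dioxide across the red cell membrane (at least 2.24-fold lower), and the blood group protein gene Ermap (at least 1.32-fold lower). These calls were less stable than the direction: Alas2 passed in 7, Epb42 and Rhag in 12 and Ermap in 16 of 19 alternative settings, all with the same sign. The count of 4 was 0 to 5 with an array left out, with 0 without NP WT replicate 2 or NP TonEBP +/- replicate 2, 1 without array weights and 0 in NP arrays alone. Slc4a1, the bicarbonate exchanger to which red cell carbonic anhydrase is functionally coupled, had 9.06, 8.89 and 8.96 in NP of TonEBP +/- mice, against 11.84, 13.21 and 10.95 in NP of WT mice. It fell 8.16-fold (log2 -3.03, SE 0.39, adjusted p = 0.00305) and was the 1 of 14 bicarbonate and anion transporters that passed. The call of Slc4a1 was lost when NP arrays were fitted alone (adjusted p = 0.123) and held in the other 18 of 19 settings, with a difference of -2.42 log2 without NP WT replicate 2.

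Neutrophil and myeloid precursor markers moved the same way: their mean was 8.54 to 10.1 log2 in NP of TonEBP +/- mice, against 10.8 to 12.2 in NP of WT mice, and 5 of 10 fell (Mpo, Elane, Ctsg, Camp and Ltf) while 0 rose. Mpo and Ctsg passed in 18, Elane in 17, Camp in 12 and Ltf in 10 of 19 alternative settings, and the count was 2 to 8 with an array left out (2 without NP WT replicate 2), 3 without array weights and 0 in NP arrays alone. The erythroid markers Klf1 and Epor were above background on no NP array, and of the osteoclast markers, whose cells also use Car2, 7 of 10 were above background on no NP array of either genotype. The mean osteoclast signal was 5.79 to 6.28 in NP of TonEBP +/- mice, against 6.24 to 6.53 in NP of WT mice, and 0 of 10 passed by limma, with 2 at an unadjusted p under 0.05. All 9 endothelial markers were above background on no NP array. The part of red cell or myeloid RNA in the Car2 difference was not tested.

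**Figure D4:**
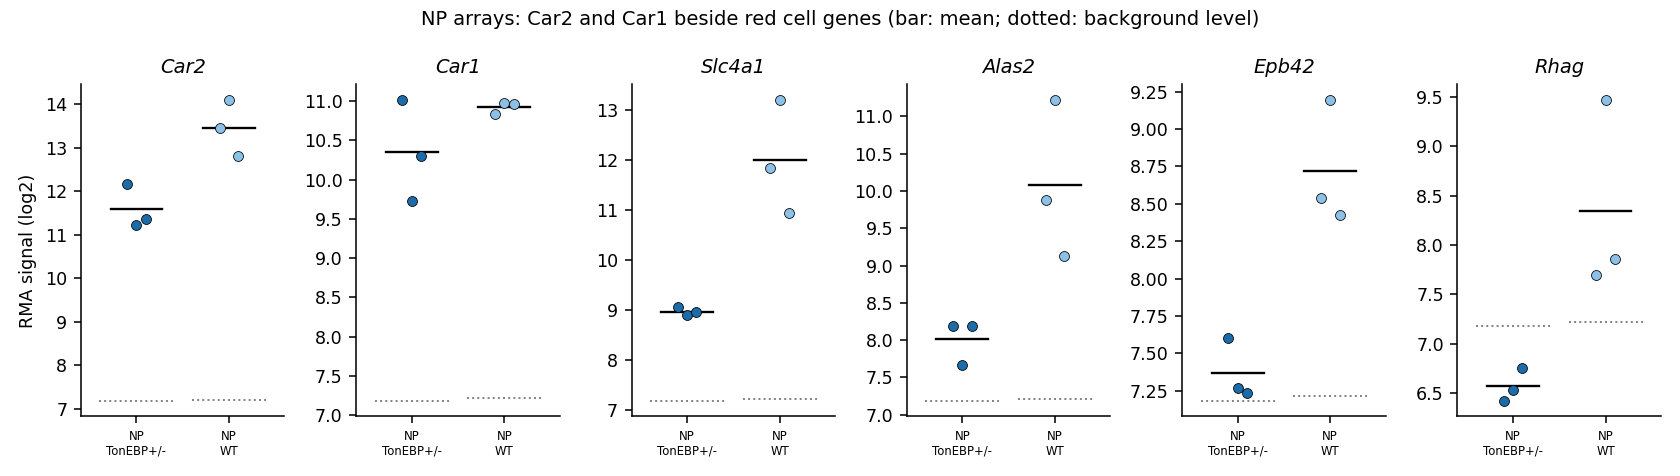
Log2 signal of Car2, Car1 and the red cell genes Slc4a1, Alas2, Epb42 and Rhag on the 6 NP arrays, TonEBP +/- left and WT right. Points are arrays, bars are group means and dotted lines the mean background level; for all of these except Car1 the 3 TonEBP +/- arrays lie below the 3 WT arrays, and Rhag in TonEBP +/- mice lies below background.

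In AF, 0 of the 10 genes passed between genotypes by limma, with 0.671% of all clusters called (149 of 22206). At an unadjusted p under 0.05 there were 3951 clusters, and of the 10 genes Car3 alone. Car3 had 12.70, 13.65 and 14.14 in AF of TonEBP +/- mice, against 18.17, 14.26 and 13.37 in AF of WT mice. The groups overlapped, and the WT array at 18.17, replicate 1, stood far above the other 5 AF arrays. Car3 differed by -1.77 log2 (SE 0.79, 95% CI -3.44 to -0.09, unadjusted p = 0.0400, adjusted p = 0.253), and by -0.31 log2 without AF WT replicate 1 (adjusted p = 0.794).

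The same AF array held more signal of NP markers. Krt19 was 7.00, 6.25 and 8.08 in AF of TonEBP +/- mice, against 11.37, 8.26 and 8.27 in AF of WT mice. Krt8, its keratin partner, was 7.04, 7.82 and 7.99 in AF of TonEBP +/- mice, against 10.34, 7.98 and 8.29 in AF of WT mice. In both, WT replicate 1 was the highest AF array. The mean of the 11 NP markers was 7.75 to 8.09 log2 in AF of TonEBP +/- mice, against 8.77, 8.07 and 8.14 in AF of WT mice. The mean of 10 cartilage markers was 11.0 to 12.1 in AF of TonEBP +/- mice, against 11.0 in WT replicate 1, 12.6 in replicate 2 and 12.9 in replicate 3. Skeletal muscle markers, a tissue rich in Car3, averaged 6.62 to 7.23 in AF of TonEBP +/- mice, against 7.05 to 7.30 in AF of WT mice. Whether NP tissue in that sample accounts for its Car3 signal was not tested.

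**Figure D5:**
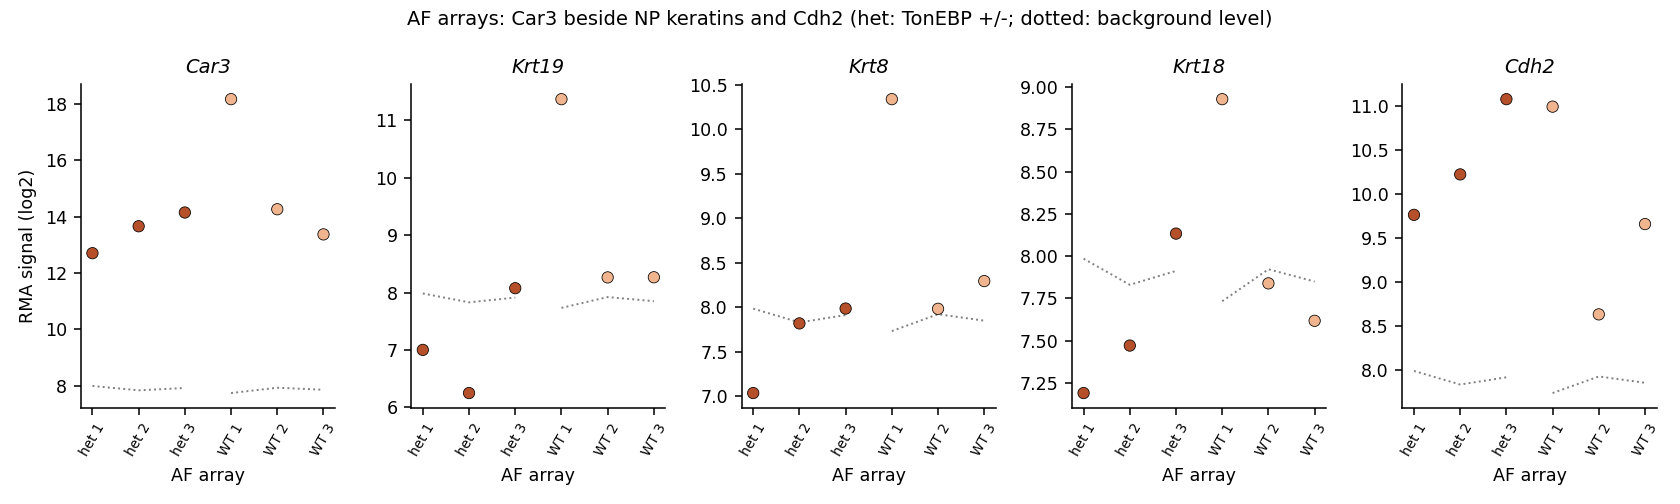
Log2 signal of Car3, of the NP keratins Krt19, Krt8 and Krt18 and of the NP marker Cdh2 on each of the 6 AF arrays, TonEBP +/- (het) left and WT right; dotted lines show the background level of each array. AF WT replicate 1 is the highest array for Car3 and the 3 keratins, while for Cdh2 it stands beside TonEBP +/- replicate 3.

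The remaining genes in AF differed by less than their intervals allow to be called. Car4 differed by -0.59 log2 (95% CI -1.24 to 0.06, limma adjusted p = 0.332). Car1 differed by 0.33 log2 (95% CI -0.58 to 1.23), Car2 by -0.17 log2 (95% CI -1.03 to 0.69), Car13 by 0.05 log2 (95% CI -0.55 to 0.65) and Car9 by -0.03 log2 (95% CI -0.96 to 0.90). Car5b, Car8 and Car12, below background on every AF array, differed by -0.34, 0.17 and 0.36 log2. Car14 was lower on every TonEBP +/- array than on any WT array (log2 -0.58, adjusted p = 0.342) but below background on all of them. No overlap between genotypes was seen in 22.3% of all AF clusters. Over the 10 genes the median difference was -0.10 log2, against -0.04 log2 over all clusters.

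In AF, red cell genes gave no call. The erythroid mean was 10.3 to 11.0 log2 in AF of TonEBP +/- mice, against 10.7 to 10.8 in AF of WT mice, and 0 of 9 passed by limma, with 0 at an unadjusted p under 0.05. The widest difference, which did not pass, was that of Alas2 (log2 -0.84, adjusted p = 0.473). Slc4a1 was 16.38, 15.37 and 15.54 in AF of TonEBP +/- mice, against 15.65, 15.87 and 16.20 in AF of WT mice, so the groups overlapped. Osteoclast markers were higher in AF of TonEBP +/- mice for 2 of 10, and Car2 did not pass there. Acp5, the osteoclast acid phosphatase, had 15.30, 14.05 and 17.12 in AF of TonEBP +/- mice, against 12.43, 8.90 and 12.74 in AF of WT mice (log2 4.13, SE 0.81, limma adjusted p = 0.0386), and Atp6v0d2, a proton pump subunit of osteoclasts, rose 10.9-fold (adjusted p = 0.0146). Both calls were lost in AF arrays alone (adjusted p = 0.105 for Acp5 and 0.0961 for Atp6v0d2) and without AF WT replicate 2 (log2 2.90 for Acp5 and 2.76 for Atp6v0d2, adjusted p = 0.143 and 0.0803), and Acp5 held in 13 and Atp6v0d2 in 17 of 19 settings. Hvcn1, the voltage-gated proton channel of leukocytes, was the 1 of 14 proton and lactate exporters that passed in AF, with 9.90, 9.08 and 10.15 in TonEBP +/- mice, against 7.92, 7.93 and 7.95 in WT mice (3.43-fold higher, adjusted p = 0.0421). That call held in 9 of 19 settings, in 3 of the 12 with an array left out, and was lost without each of AF WT replicates 1, 2 and 3 and AF TonEBP +/- replicates 1 and 3 (adjusted p from 0.112 to 0.175). Neutrophil and myeloid precursor markers, which were lower in NP of TonEBP +/- mice, were higher in AF. All 10 were higher on every AF TonEBP +/- array than on any AF WT array, with a median difference of 1.43 log2. By limma 1 of the 10 passed, Cebpe (log2 1.66), with 6 at an unadjusted p under 0.05. Cebpe passed in 10 of 19 settings, but not in AF arrays alone (adjusted p = 0.104). The part of leukocyte RNA in the Hvcn1 difference was not tested. Hypoxia response genes passed in neither tissue between genotypes by limma, 0 of 12 in NP with 0 at an unadjusted p under 0.05, and 0 of 12 in AF with 2 at that level. The widest differences among them, none of which passed, were 0.69 log2 for Adm, the vasodilator peptide adrenomedullin, and 0.53 log2 for the histone demethylase Kdm3a in NP, and -1.07 log2 for Ankrd37 and 0.93 log2 for the oxidoreductase Ero1a in AF. Of the bicarbonate and anion transporters, 0 of 14 passed in AF, with 0 at an unadjusted p under 0.05, and of the proton and lactate exporters 0 of 14 passed in NP, with 1 at that level, Hvcn1, which was below background there.

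Whether the genotype difference itself differed between the tissues was tested as an interaction, the difference in NP minus that in AF. By limma, 0 of the 10 genes passed, with 0.874% of all clusters called, 0.131% higher and 0.743% lower, and 3116 clusters at an unadjusted p under 0.05. Of the 10, Car2 alone was under that unadjusted level (log2 -1.70, SE 0.50, 95% CI -2.76 to -0.64, unadjusted p = 0.00370, limma adjusted p = 0.120), so the fall of Car2 in NP was not shown to differ from the difference in AF. It passed without NP WT replicate 3 (log2 -2.02, adjusted p = 0.0347). Car3 had an interaction of 1.76 log2 (SE 0.98, adjusted p = 0.454), with NP at the signal maximum. Slc4a1 passed (log2 -2.88, SE 0.65, adjusted p = 0.0482), in 8 of 18 alternative settings, and of the 9 erythroid markers Ermap alone passed (log2 -2.17), in 9 of 18. Over the 10 genes the median was 0.31 log2, against 0.05 log2 over all clusters.

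For each of the 7 genes above background on at least 6 of 12 arrays, the 3 named genes with the most similar profile were found among 9251 by the root mean square difference of log2 profiles over the 12 arrays, each centred on its own mean. For Car2 these were Slc25a37, the mitochondrial iron importer of red cell precursors (0.35 log2), Ermap (0.36) and Add2, the beta subunit of the membrane skeleton protein adducin (0.39), where the median over all candidates was 2.61. Car1 was nearest to Dennd4a (0.29), 9930111J21Rik1 and Pabpc1 (both 0.39). Car3, against a median of 2.94 over all candidates, had its nearest profiles in Tshr, the thyrotropin receptor (0.69), Adgrd1, an adhesion receptor (0.77), and App, the amyloid precursor (0.78). Car9 was nearest to Trafd1 (0.30), Ccdc9 (0.31) and Hmgn1 (0.32), Car13 to Hnrnpa1l2-ps2, Dnajb6 and Styx (0.18 to 0.19), Car5b to Morn2, Tctn2 and Ntn1 (0.21 to 0.24), and Car4 to Ccl21a, Lce1a1 and Gm5108 (0.17 to 0.20). These 12 arrays share the large tissue difference, so a small value mainly says that a gene shared its size and direction.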

How the data were processed

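Expression was measured on Clariom S Mouse arrays after biotin labelling with the GeneChip WT Plus kit, per the labels' protocols. What the authors deposited is a log2 signal for each probe set on each array; Affymetrix Expression Console and RMA stand in the submitters' processing notes, with no version. RMA corrects background, equalizes signal distributions among arrays normalized together and summarizes probes; the AF and NP arrays kept different medians and interquartile ranges (3.61 to 3.80 in NP, 2.36 to 3.11 in AF), and which arrays were normalized together is not given in the sources used here. The highest deposited value, 19.93 log2, was reached by 0 to 20 clusters per array and hides differences above it. Of 28846 probe sets, 6640 controls were left out and 22206 transcript clusters tested. Gene names came from the array's annotation, and neighbours and promoters from RefSeq GRCm38.p6.

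Means of the 4 groups were fitted to all 12 arrays in limma 3.58.1 (R 4.3.3), with 1 weight per tissue (1.36 for NP, 0.74 for AF, since AF arrays varied more), eBayes (8.32 prior and 8 residual degrees of freedom) and Benjamini-Hochberg adjustment over all clusters, and calls were made at an adjusted p under 0.05. Genotype and interaction comparisons used values as deposited; NP against AF used values minus the array median. A group above background on 0 of 3 arrays enters a fold at the array's background level or its own signal, whichever is higher, as a bound ("at least"). Exact permutation over 3 against 3 samples cannot go below p = 0.1, so no such test is given. Scripts were tested on simulated data. Figures were drawn with matplotlib 3.10.9 in Python 3.11.15. No 2 arrays were duplicates (smallest root mean square difference 0.41 log2).

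The 10 genes and all 14 gene lists (156 symbols, 9 without a cluster) were chosen with earlier results of these data known. By rule, all 10 genes are described. Of the lists, counts are given where a list was set beside the 10 genes, with a median or mean in places and some genes by name. Not every list is given for every comparison. Between genotypes in AF, 3 of 8 annulus and tendon markers and 1 of 10 cartilage markers passed too, against 0.671% of all clusters. Lists of other cell types were included for the sources a disc sample can hold. Alternatives were no or per-array weights, medians subtracted or not, quantile normalization, a background filter, an intensity trend, each tissue or genotype alone, and each array left out.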

Additional observations from a re-analysis of the deposited data

Results flagged for a closer look

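None of the 10 carbonic anhydrase genes was singled out, and the groups of 3 are too small for a search for outlying samples. Of the listed genes beside them, 16 differed between the tissues in their genotype difference by limma's interaction test, 14 more negative and 2 more positive in NP than in AF. Of all clusters 0.874% passed this test, 0.743% more negative and 0.131% more positive, so the negative direction prevailed there too. All lists, with the 10 genes included, held 156 symbols, 9 of them without a cluster. They were chosen with earlier results of these data known, so the number that passed is no test of the lists. For the bicarbonate exchanger Slc4a1 the difference in NP minus that in AF was -2.88 log2, for the proton channel Hvcn1 -2.52 and for the erythroid gene Ermap -2.17. The osteoclast genes Acp5 and Atp6v0d2 had -4.88 and -3.78. The neutrophil and myeloid precursor genes had -4.31 (Mpo), -4.91 (Elane), -3.49 (Ctsg), -2.68 (Prtn3), -4.50 (Camp), -3.99 (Ltf) and -2.15 (Cebpe). Of the annulus and tendon markers, the collagen genes Col1a1 and Col1a2 had -4.23 and -3.95 and the small proteoglycan gene Fmod 2.28, and the cartilage proteoglycan gene Acan had 2.13. All 16 kept their sign under the 18 alternative settings run for this comparison, and the number of those settings in which they passed ran from 7 (Col1a2) to 17 (Ctsg and Acan).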

How the results depend on the processing

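Every gene of the 10 that passed between the tissues kept its direction in all alternatives, and Car1, Car2, Car3, Car5b, Car8, Car9, Car12 and Car13 passed in every one run (the filter on dim clusters left out Car8, Car12 and Car14); the number passing was 7 to 10 in WT and 6 to 9 in TonEBP +/- mice. With values as deposited, 28.3% of clusters called between tissues in WT mice were higher in NP, against 52.0% with medians subtracted, and 26.9% against 55.1% in TonEBP +/- mice. Between genotypes in AF, 3 of the 10 genes passed (0 as reported) with a weight for each array (Car1, Car3 and Car12), a fit whose weights did not converge, and 7187 clusters, against 149 as reported, 1347 without weights, 546 after quantile normalization, 3 with AF arrays alone and 6 to 2404 with an array left out; 47.0% of these were higher as reported, 55.5% with medians subtracted and 35.7% after quantile normalization. In NP the genes passing were 1, with 0 in NP arrays alone and 0 to 1 with an array left out; clusters were 81, against 25 without weights, 0 in NP arrays alone (1443 at an unadjusted p under 0.05 as reported) and 11 to 154 with an array left out. For the interaction, 3 genes passed with a weight for each array (Car1, Car2 and Car12) and 0 to 1 with an array left out; clusters were 194, against 2503 with a weight for each array and 1 to 1095 with an array left out, and 14.9% were higher, against 29.2% after quantile normalization and 48.2% with a weight for each array.

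Differences that did not pass as reported changed sign as follows. In AF, Car1 ran from -0.059 to 0.59 with an array left out, Car2 from -0.29 to 1e-04 (0.022 with a weight for each array), Car9 from -0.36 to 0.15 (0.58 with a weight for each array, 0.059 with medians subtracted) and Car13 from -0.14 to 0.29 (-0.084 with a weight for each array). In NP, Car3 was 0.037 with medians subtracted, and Car5b ran from -0.0082 to 0.28 and Car14 from -0.048 to 0.21. The Car9 interaction was -0.070 with a weight for each array, and that of Car13 ran from -0.095 to 0.33. Between tissues, Car14 in WT mice was -0.64 with values as deposited and -0.018 to 0.34 with an array left out, and Car4 in TonEBP +/- mice ran from -0.33 to 0.19. Of the differences that passed as reported, Slc4a2 in WT mice was -0.12 with values as deposited, and Ero1a in TonEBP +/- mice -0.33 after quantile normalization; neither passed there. The causes were not tested. No paired analysis was possible because the labels number the arrays through the series and give the groups no shared replicate numbers. Signal over background limits Car8, Car12 and Car14, and the signal maximum limits Car3 in NP.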
